A study of Mus musculus with 26 samples.

Results

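R1 mouse embryonic stem cells (ESCs) that overexpressed the Dux mutant DuxR70A (DuxR70A OE) were compared with R1 ESCs that overexpressed wild-type Dux (Dux OE), to describe which genes were lost and which were gained with the mutant. The 4 poly(A) RNA-seq libraries, 2 per group, were chosen by their titles from the 26 libraries of the series. R1 is an established mouse ESC line. All 4 libraries came from cells with a genotype labelled WT, kept with LIF on gelatin, and given 4 µg/mL doxycycline for 24 h. The untreated ESC libraries and the DMSO libraries, 2 of each, gave the levels in cells without an induced transgene. Further groups of 2 libraries each were SE KO Dux OE (cells with a super-enhancer knockout, with doxycycline at the same dose and time), Zscan4 OE (likewise 4 µg/mL doxycycline for 24 h), PlaB (pladienolide B, a splicing inhibitor, 4 nM for 4 days) and RA (retinoic acid, 0.53 µM for 48 h). How the inducible lines were made, and whether each was a single clone, is not given in the sources used here, and a Dux OE line without doxycycline was not analysed here.

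Dux encodes a homeodomain transcription factor that is expressed briefly at zygotic genome activation in the mouse embryo. It binds DNA near genes and retroviral elements of the 2-cell (2C) stage, and its overexpression moves ESCs towards a 2C-like state in which Zscan4, Tdpoz, Usp17l and related gene families are transcribed. In DuxR70A an arginine of the homeodomain region is replaced with alanine, and the study uses it as a mutant deficient in forming nuclear condensates. Many 2C genes lie in clusters of near-identical copies, so reads may be divided among copies, and values of single members of such families are uncertain.

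The counts summed to between 15016024 and 17934680 per library in the 4 libraries, with 24024 to 24754 genes detected in each. Mitochondrial genes took 2.92 to 3.15% of the counts in the Dux OE libraries and 2.19 to 2.21% in the DuxR70A OE libraries. The 12 fibroblast marker genes listed, 9 of them tested, summed to 71 and 66.6 CPM in Dux OE and to 59.7 and 60.2 CPM in DuxR70A OE. Of this, Thy1 gave 43 and 40.8 CPM in Dux OE and 20.9 and 20.3 CPM in DuxR70A OE, with 23.1 CPM in untreated ESCs. No Y-linked gene of a fixed list had enough counts to be tested. The labels do not say whether the 2 libraries of a group came from separate cultures. The p-values measure only the spread between libraries of a group, which may be technical. That spread was estimated over all 26 libraries in 1 model. In such bulk samples, fewer cells in a state and less RNA per cell cannot be told apart. Levels are given in CPM, counts relative to the library's total after a scaling for composition, and a log2 fold change is DuxR70A OE over Dux OE unless another comparison is named. A gene was called when the edgeR quasi-likelihood test, adjusted over all 20953 genes tested, gave a p under 0.05 and the absolute log2 fold change was at least 1.

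With the mutant, 1574 genes fell (7.51% of the genes tested) and 1280 genes rose (6.11%). Of the 1574, 720 had a fitted log2 fold change of -5 or below, 166 lay between -3 and -5, 179 between -2 and -3, and 509 between -1 and -2. No read was counted in either DuxR70A OE library for 545 of the 1574 (34.6%). With these genes set at a bound of 3 counts per library, 322 of the 1574 reached -5 or below. The rises were smaller, since 879 of the 1280 gained genes lay between 1 and 2, 248 between 2 and 3, 92 between 3 and 5 and 61 at 5 or above. The median log2 fold change was -3.97 over the lost genes and -2.47 when each gene without a read was set at its bound of 3 counts per library, against 1.59 and 1.51 over the gained genes and -0.01 over all genes tested. Scaled by library totals alone, the split was 1329 lower and 1902 higher, and the median of all genes moved to 0.171.

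**Figure D1:**
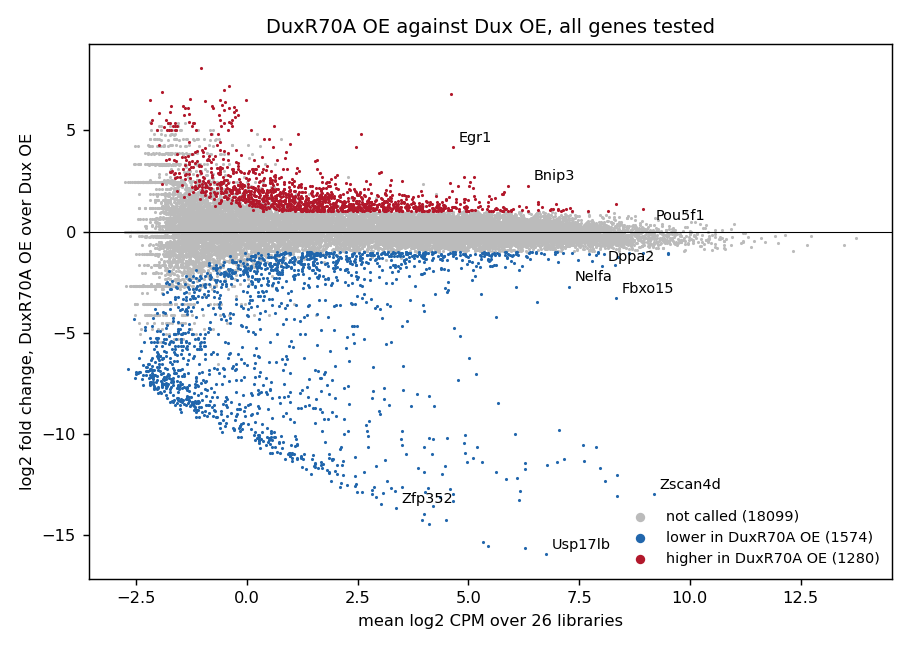
Log2 fold change of DuxR70A OE over Dux OE (vertical axis) against the mean log2 CPM over the 26 libraries (horizontal axis) for the 20953 genes tested, with genes called lower in blue, higher in red and others in grey. The 1574 lost genes reach further from 0 than the 1280 gained genes, with Zscan4d, Usp17lb and Zfp352 far below, and the isolated gained point at 6.78 is Gm10095, whose SE was 2.33.

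The 2C families were among the deepest losses. The 12 largest fitted falls were taken among genes whose groups did not overlap and whose mean log2 CPM reached 1. Of these 12, 4 were on the 2C lists (Usp17lb, Usp17lc, Pramef25 and Zfp352). The other 8 were Zscan4-ps1, a Zscan4 pseudogene, and Gm4971, AF067061, BC147527, Gm7957, Gm12800, Gm21818 and Gm21936, whose roles are not given here. None of the 12 had a DuxR70A OE read, so each fold is known only as a bound. The bounds ran from 376-fold for Gm21936 to 2350-fold for Usp17lb. Zscan4c, which kept a few reads, is outside the 12 although its ratio was 9330. Gm4971 had 299 and 324 CPM with Dux and was at least 1790-fold lower. Zscan4-ps1 had 319 and 337 CPM with Dux and was at least 1880-fold lower. Over all 2C lists, 60 of the 73 tested genes fell and 0 rose, against 7.51% of all genes called lower, and the median log2 fold change was -10, or -7.22 with the 26 genes without a DuxR70A OE read at their bound. The remaining 13 did not pass the test. Of the 86 genes on the lists, 73 had passed the filter on counts. A gene silent in other groups could pass that filter through the Dux OE libraries. DESeq2 gave 59 lower and 0 higher, and at an unadjusted edgeR p under 0.05 with no minimum fold 1 gene was higher. Together the 86 listed genes made up 1.12% and 1.16% of the counts in the Dux OE libraries and 0.153% and 0.147% in the DuxR70A OE libraries. In summed level this was 12200 and 12600 CPM with Dux, and 1470 and 1390 CPM with DuxR70A. Untreated ESCs lay in between at 2400 and 2480 CPM, with DMSO-treated ESCs at 2090 and 2050 CPM. Most of the sum outside Dux OE came from the list of other 2C genes. That list gave 1410 and 1330 CPM with DuxR70A, 2270 and 2350 CPM in untreated ESCs and 2870 and 2900 CPM with Dux. The Zscan4 family summed to 0.859 and 0.879 CPM with DuxR70A, 38 and 36.3 CPM in untreated ESCs and 4780 and 5020 CPM with Dux. Read against untreated ESCs, which both comparisons share, 62 of the 73 genes were called higher in Dux OE (7.38% of all genes called higher) and 34 were called lower in DuxR70A OE (6.72% of all genes called lower), while 4 were called higher there. DMSO-treated ESCs were themselves called lower than untreated ESCs for 28 of the 73, and the part of this difference between controls in the DuxR70A result was not tested.

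All 6 Zscan4 genes fell. Zscan4 proteins carry a SCAN domain and zinc fingers and are known for telomere maintenance in ESCs. Zscan4c (chr7:11005745-11010547, mm10) stood at 811 and 810 CPM in the Dux OE libraries and at 0.107 and 0.0628 CPM in the DuxR70A OE libraries, which rested on 2 reads and 1 read. The Dux OE level was 9330 times the DuxR70A OE level, with a 95% interval for counting error alone of 3190 to 45300, and the adjusted p was 5.15e-26. Both DuxR70A OE libraries also lay below untreated ESCs, at a mean of 5.93 CPM, and below DMSO-treated ESCs at 1.54 CPM. Zscan4d (chr7:11161374-11166159) was the most abundant member, at 1660 and 1710 CPM with Dux against 0.268 and 0.126 CPM with DuxR70A, a log2 fold change of -12.98 ± 0.24 (SE, adjusted p = 1.09e-24). Zscan4a had 1200 and 1270 CPM against 0.268 and 0.188 CPM (-12.34 ± 0.24). For none of the 6 did the libraries of the 2 groups come near each other.

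Because Dux is a DNA-binding factor known to switch on 2C genes, the promoters of lost genes were searched for TGATTNAATCA, an inverted repeat of a homeodomain half-site that was chosen for this search and not taken from the study. It is its own reverse complement, so 1 search covers both strands. The windows ran from 250 bases before to 50 after each start site and came from RefSeq for GRCm38.p6, the assembly behind mm10. An exact match lay in 11 of 27025 promoters (0.0407%), in 2 of the 13364 tested genes that had a promoter in the table (0.015%), and in none of the 737 lost or 863 gained genes with a promoter. With up to 1 mismatch, a setting chosen after the exact search, the share was 2.58% of the lost genes (19 of 737). It was 5.7% of those with a fitted log2 fold change of -5 or below (13 of 228). The gained genes had 0.232% (2 of 863) and all tested genes 0.561% (75 of 13364). Several near matches of strongly lost genes recurred in copies of 1 family, and the following windows of 29 bases show them beside those of Abcb5 and Duxf3, 5′ to 3′ along the gene's strand, with the near match in capitals.
Zscan4b (chr7:10905122-10905150, minus strand): caggaggttTGATAGAATCActgtgtgaa
Zscan4c (chr7:11005622-11005650, plus strand): caggagtttTGATAGAATCActgtgtgaa
Zscan4d (chr7:11166254-11166282, minus strand): caggaggttTGATAGAATCActgtgtgaa
Zscan4f (chr7:11397815-11397843, plus strand): aaggagtttTGATAGAATCActgtgtgaa
Gm4027 (chr12:87618730-87618758, plus strand): ttggtgtggTGATTGAATTAtgcttggat
BB287469 (chr12:87816439-87816467, plus strand): ttggtgtggTGATTGAATTAtgcttggat
Gm21319 (chr12:87775866-87775894, minus strand): atgttatggTGATTGAATTAtgcttgaag
Abcb5 (chr12:118966478-118966506, minus strand): cttcatcacTGATTATATCAggtagtaca
Duxf3 (chr10:58233210-58233238, minus strand): tttgtaagcTGATTGAATCCggatgggat
The 4 Zscan4 windows share the same 11 letters, 91 to 125 bases before the start, and the 3 Eif1a-like windows share another set. A match describes letters in a window and does not show binding, copies of a family are not independent, and promoters without a match say nothing on more distant elements.

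The Usp17l genes, which encode deubiquitinases, fell in 5 of 5 cases. Usp17lb (chr7:104840257-104842603) had 400 and 421 CPM with Dux and no read in either DuxR70A OE library, so it was at least 2350-fold lower (adjusted p = 1.63e-23). Usp17le kept a few reads, with 528 and 553 CPM against 0.161 and 0.188 CPM, a log2 fold change of -11.55 ± 0.22. The Eif1a-like genes, relatives of the translation initiation factor eIF1A, fell in 11 of 11 cases, and 10 of them lie on chromosome 12, where the windows of Gm4027, BB287469 and Gm21319 printed above come from. Gm5662 (chr12:88270640-88274500) had 755 and 829 CPM with Dux and 0.107 and 0.377 CPM with DuxR70A (-11.7 ± 0.25). Gm4340, on chromosome 10, differed between its own Dux OE libraries, at 400 and 205 CPM, and still lay far above the 0.268 and 0.314 CPM of DuxR70A OE.

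The Tdpoz genes, which encode proteins with TRAF and BTB/POZ domains, fell in 6 of 7 tested cases. Tdpoz3 (chr3:93826020-93827117) had 35.3 and 38.4 CPM with Dux against 0 and 0.0628 CPM with DuxR70A, a ratio of 1280 with a counting interval of 228 to 50400. Tdpoz4 had 30.8 and 34.4 CPM with Dux and no DuxR70A OE read, at least 187-fold lower. Tcstv1, Tcstv3 and AF067063, of the Tcstv group of 2C genes, all fell, with Tcstv3 at 123 and 143 CPM against 0 and 0.0628 CPM. Obox genes encode homeodomain proteins of the oocyte and early embryo. Obox2, Obox3 and Obox6 fell from low levels. Obox3 had 2.19 and 2.43 CPM with Dux and no read with DuxR70A, at least 13.2-fold lower. Of 9 Prame-like genes, which encode leucine-rich repeat proteins, 5 fell, or 2 in a fit of the 4 libraries alone, in which some low members were not tested. Pramef25 (chr4:143948580-143951016) was the strongest of these, at 122 and 129 CPM against no read, at least 719-fold lower. Trim75, which encodes a tripartite motif protein, had 34.3 and 30.4 CPM against 0 and 0.0628 CPM and was the only 1 of 4 tested Trim43 and Trim75 genes to fall.

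Among the other 2C genes, 20 of 25 fell. Zfp352, a zinc finger gene long used as a marker of the 2C state, had 83.4 and 84 CPM in Dux OE and no read in DuxR70A OE (chr4:90218820-90225702), at least 479-fold lower (adjusted p = 1.69e-17). It was also nearly silent in untreated ESCs, at a mean of 0.0934 CPM. Cpb2, a carboxypeptidase gene, had 15.8 and 16.3 CPM against no read. Sp110, a nuclear body protein gene, fell from 60.8 and 66.6 CPM to 0.215 and 0.188 CPM (log2 fold change -8.25 ± 0.41). Dnah7c, a dynein heavy chain gene, kept 1.29 and 1.44 CPM with DuxR70A, against 58.4 and 62.8 CPM with Dux and 1 CPM in untreated ESCs, so the mutant libraries were near the level of untreated ESCs. Arg2, an arginase gene, showed the same order, with 13 and 13.6 CPM with Dux, 0.966 and 1.26 CPM with DuxR70A and 1 CPM in untreated ESCs. The smallest falls of the list were those of Zfp750 (-1.1 ± 0.18), Pdgfrl (-1.48 ± 0.15), Ddit4l (-1.52 ± 0.12) and Gpr63 (-1.64 ± 0.41).

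**Figure D2:**
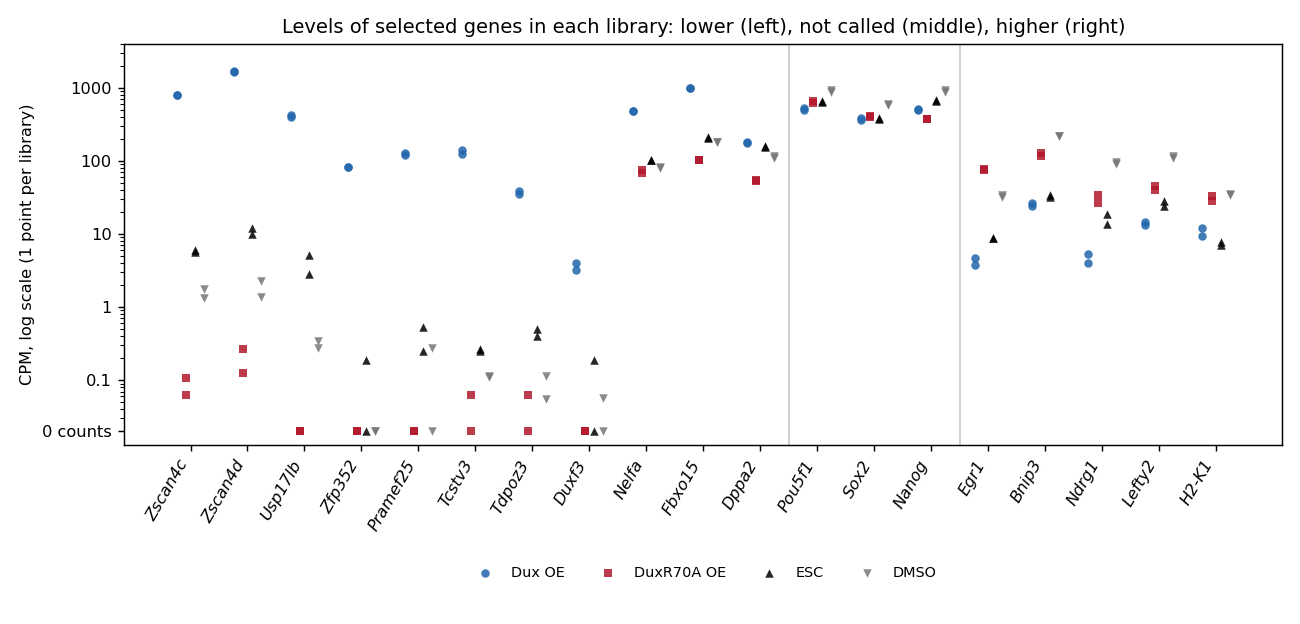
CPM (log scale, with 0 counts on a line of its own) of 19 genes in each of the 2 Dux OE, 2 DuxR70A OE, 2 untreated ESC and 2 DMSO libraries, with 1 point per library and genes grouped as lower, not called and higher in DuxR70A OE. Zscan4c stands at 811 and 810 CPM with Dux against 0.107 and 0.0628 CPM with DuxR70A, whereas Pou5f1, Sox2 and Nanog, in the middle, were not called between Dux OE and DuxR70A OE.

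Duxf3 is the Dux repeat gene of the annotation (chr10:58229979-58232675), and it had 4.01 and 3.24 CPM in Dux OE, no read in DuxR70A OE and 0.0934 CPM in untreated ESCs. It was at least 20.8-fold lower with the mutant (adjusted p = 7.44e-08). The sequence of neither transgene was used here, and whether reads from a transgene were counted at Duxf3 was not tested. The amounts of Dux and DuxR70A RNA in the 2 lines therefore cannot be compared from these counts, and a difference in transgene level and the amino acid change cannot be told apart. Of 23 regulators of Dux, 2 fell (8.7%, near the 7.51% of all genes). Nelfa, a subunit of the negative elongation factor that is also a maternal activator of 2C genes, fell from 482 and 477 CPM to 76.2 and 68.6 CPM, with 103 CPM in untreated ESCs (-2.73 ± 0.09, adjusted p = 4.99e-19). Dppa2, which acts upstream of Dux, had 182 and 175 CPM with Dux against 53.2 and 55.8 CPM with DuxR70A (-1.71 ± 0.08). Untreated ESCs had 159 CPM of Dppa2, so here the mutant libraries were the ones far from ESCs. Trim28, a corepressor of retroviral elements, had 2260 and 2350 CPM against 1330 and 1120 CPM and was not called (-0.92). None of 20 coactivator and genome architecture genes was called in either direction by edgeR or by DESeq2, and at an unadjusted p under 0.05 with no minimum fold 6 were lower and 8 higher. The log2 fold change was -0.23 for Ctcf, 0.14 for Ep300 and -0.04 for Crebbp, whose sign turned when libraries were scaled by their totals alone (0.15).

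In the core pluripotency list 1 of 16 genes fell and 1 rose, with a median of -0.06, and in the naive list 1 of 20 fell and 1 rose, with a median of -0.11, against 7.51% and 6.11% of all genes. At an unadjusted p under 0.05, 6 core genes were lower and 4 higher, and 8 naive genes were lower and 6 higher. Pou5f1, the gene for OCT4, had 505 and 530 CPM with Dux and 667 and 624 CPM with DuxR70A (0.32), Sox2 had 368 and 392 against 404 and 411 CPM (0.10), and Nanog had 508 and 502 against 373 and 377 CPM (-0.43). None of the 3 was called, since each absolute log2 fold change was under 1. The adjusted edgeR p was 0.0116 for Pou5f1, 0.498 for Sox2 and 3.06e-05 for Nanog. Fbxo15, an F-box gene on the naive list, fell from 1010 and 989 CPM to 103 and 102 CPM (-3.28 ± 0.09, adjusted p = 1.57e-21), and untreated ESCs had 210 CPM. Fgf4, a growth factor of the inner cell mass, rose from 101 and 100 CPM to 223 and 204 CPM (1.08 ± 0.1), and Tet2, a DNA demethylation enzyme, rose from 60.8 and 64.4 CPM to 131 and 142 CPM (1.12 ± 0.14). For Fgf4, untreated ESCs had 135 CPM and DMSO-treated ESCs 316 CPM, a difference that was also called (1.22). Untreated ESCs had 197 CPM of Tet2, above both groups.

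The replication-dependent histone genes formed the largest group of losses outside the 2C families. These genes make the histones of S phase, their mRNAs normally end in a stem-loop and not in a poly(A) tail, and a poly(A) library samples only their polyadenylated transcripts. Of 52 tested, 27 fell, against 7.51% of all genes, and 0 rose, with a median of -1.97, or -1.87 with silent genes at their bound. DESeq2 also gave 0 higher, and at an unadjusted p under 0.05 1 was higher. Against untreated ESCs, 22 were called higher in Dux OE, while in DuxR70A OE 1 was called higher (10.2% of all genes were) and 3 lower. H4c9 (chr13:22040636-22041362) had 7.5 and 7.9 CPM with Dux, 0.805 and 0.753 CPM with DuxR70A and 2.58 CPM in untreated ESCs (-3.29 ± 0.33, adjusted p = 8.1e-09). H4c1 had 2.99 and 1.89 CPM against 0.107 and 0.188 CPM (-4.01 ± 0.57). All 27 that fell lie on chromosome 13, and histone copies that are near identical may exchange reads.

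Heat shock genes fell in 2 of 13 cases (15.4%, against 7.51% of all genes), and both were inducible Hsp70 genes. The median over the 13 was -0.59. At an unadjusted edgeR p under 0.05 with no minimum fold, 10 were lower and 1 higher, so smaller falls reached other members. Hspa1a had 8.52 and 10.5 CPM with Dux against 2.15 and 1.63 CPM with DuxR70A (-2.32 ± 0.29), and its neighbour and near-copy Hspa1b had 18.7 and 17.4 against 4.62 and 5.96 CPM (-1.78 ± 0.17). In untreated ESCs the means were 0.944 and 4.98 CPM and in DMSO-treated ESCs 1.39 and 11.7 CPM. Hspa1a was called higher than in untreated ESCs in both Dux OE (3.34) and DuxR70A OE (1.02), and Hspa1b in Dux OE (1.86) and in DMSO-treated ESCs (1.23). Of 19 germline and meiosis genes 5 fell and 3 rose, against 7.51% and 6.11% of all genes, with a median of -0.68. Tex19.1, which restrains retrotransposons in germ cells, fell from 43.5 and 38.4 CPM to 5.85 and 6.21 CPM (-2.76 ± 0.17), and Sohlh2, a germ cell transcription factor, from 96.5 and 89.6 CPM to 30.8 and 26.5 CPM (-1.7 ± 0.1). Both were also low in DMSO-treated ESCs (4.4 and 13.2 CPM) against untreated ESCs (36.2 and 86.1 CPM), and 3 of the 5 that fell were called lower in DMSO-treated than in untreated ESCs. Prdm1, a regulator of germ cell specification, fell by 1.55, while Sycp3 of the synaptonemal complex rose by 1.74 and Brdt, a testis bromodomain gene, by 1.35 on the log2 scale.

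Cell cycle genes fell in 3 and rose in 2 of 31 cases. These shares, 9.68% and 6.45%, were near the 7.51% and 6.11% of all genes. Cdkn2a, which encodes p16 and p19ARF, had 6.85 and 9.66 CPM with Dux against 1.07 and 1.51 CPM with DuxR70A (-2.69 ± 0.28), and the controls differed likewise, at 6.68 CPM in untreated and 1.47 CPM in DMSO-treated ESCs. In all, 2 of the 3 that fell and both that rose were called in the same direction in DMSO-treated against untreated ESCs. Ccnd2, cyclin D2, had 7.29 and 8.71 CPM with Dux and 1.66 and 2.89 CPM with DuxR70A, and 41.9 CPM in untreated ESCs (-1.84 ± 0.2). It was thus lower than in ESCs in both lines and lowest with the mutant.

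On the gained side, Egr1, an immediate early transcription factor of the ERK pathway, was among the strongest rises. It had 3.79 and 4.73 CPM with Dux and 75.1 and 77.7 CPM with DuxR70A, 17.9-fold higher (4.16 ± 0.21, adjusted p = 6.97e-15), with 8.72 CPM in untreated and 33.3 CPM in DMSO-treated ESCs. Fos, another immediate early gene, rose by 1.23 ± 0.22. In all, 3 of 18 FGF and ERK targets rose (16.7%, against 6.11% of all genes). By edgeR or DESeq2 0 fell, and 2 were lower at an unadjusted p under 0.05. All 3 that rose were also called higher in DMSO-treated than in untreated ESCs. Stc1, a secreted glycoprotein gene, had 0.0729 and 0.0675 CPM with Dux, 1 read in each library, and 1.72 and 2.64 CPM with DuxR70A, a ratio of 30.5 with a counting interval of 8.16 to 257. Untreated ESCs had 0.673 CPM of Stc1 and DMSO-treated ESCs 3.77 CPM, which was also called higher (2.47).

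Hypoxia genes rose in 8 of 16 cases, against 6.11% of all genes called higher, and 1 fell, with a median of 1.08. Bnip3, a mitophagy receptor gene, had 24.6 and 26.8 CPM with Dux and 128 and 118 CPM with DuxR70A (2.26 ± 0.13, adjusted p = 9.57e-14). Ndrg1 had 4.01 and 5.4 against 34.4 and 26.9 CPM (2.7 ± 0.23), Bhlhe40, a clock-linked repressor, 19.7 and 20.9 against 106 and 90.3 CPM (2.27 ± 0.25), and Vegfa, the angiogenic growth factor, 24.5 and 23.1 against 86.2 CPM in both libraries (1.86 ± 0.14). P4ha2, a collagen prolyl hydroxylase gene, was the gene that fell (-1.05 ± 0.1), a call that was lost without Dux OE replicate 2. The same genes differed between the uninduced controls: 12 of the 16 were called higher in DMSO-treated than in untreated ESCs (8.32% of all genes were), the 8 that rose among them, and DMSO-treated ESCs had 218 CPM of Bnip3 against 33.5 CPM in untreated ESCs. Whatever separates the controls was not tested as a part of the rise in DuxR70A OE.

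Genes of MHC class I and antigen presentation rose in 6 of 16 cases, against 6.11% of all genes, and the median was 0.78. By edgeR and by DESeq2 0 fell, and 2 were lower at an unadjusted p under 0.05. H2-K1, a class I heavy chain gene, had 9.4 and 12 CPM with Dux and 33.6 and 28.6 CPM with DuxR70A (1.54 ± 0.15, adjusted p = 9.55e-09). Tap1 and Tap2, which form the peptide transporter, rose by 1.33 ± 0.18 and 3.53 ± 0.57, Tap2 from 0.146 and 0.27 CPM to 2.47 and 2.51 CPM. All 6 lie on chromosome 17, and 5 of the 6 were also called higher in DMSO-treated than in untreated ESCs. No interferon-stimulated gene of the 15 tested was called, with a median of -0.19, and at an unadjusted p under 0.05 3 were lower and 1 higher.

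Nodal and mesendoderm genes rose in 5 of 12 cases, against 6.11% of all genes, with a median of 0.84, and 3 of the 5 were also called higher in DMSO-treated than in untreated ESCs. By edgeR and by DESeq2 0 fell, and 1 was lower at an unadjusted p under 0.05. The count that rose dropped to 1 without Dux OE replicate 1 and to 3 without DuxR70A OE replicate 1. Lefty2, a Nodal antagonist and target, had 13.5 and 14.8 CPM with Dux and 39.8 and 46.1 CPM with DuxR70A (1.6 ± 0.15), and DMSO-treated ESCs had 113 CPM. Lefty1 rose by 1.23 ± 0.18 and was no longer called without Dux OE replicate 1, at 0.91. Fgf8 and T (Brachyury) rose from 3 reads or fewer over the Dux OE libraries, so their ratios of 7.7 (2.38 to 39.6) and 11.6 (1.76 to 489) are wide. Nodal itself had a log2 fold change of -0.78 and was not called. Among 11 BMP and SMAD targets, Id1 rose by 1.63 ± 0.12 and Id2 by 1.47 ± 0.22, while Id3, of the same family of inhibitors of DNA binding, fell by 1.58 with an SE of 0.17. Id3 had 10.9 and 11.1 CPM with Dux, 3.97 and 3.33 CPM with DuxR70A and 27 CPM in untreated ESCs.

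Neural genes rose in 3 of 14 cases and 1 fell. For this list and those that follow, 6.11% of all genes were called higher and 7.51% lower. Ncam1, a neural cell adhesion molecule, had 7.5 and 8.58 CPM with Dux and 42.6 and 42.9 CPM with DuxR70A (2.41 ± 0.14), and DMSO-treated ESCs had 61.4 CPM. Neurod1, a neurogenic transcription factor, rose from 1.75 and 1.89 CPM to 5.9 and 7.22 CPM (1.84 ± 0.35), with 1.51 and 1.53 CPM in untreated and DMSO-treated ESCs, so both controls were near the Dux OE level. Dll1, a Notch ligand, rose by 1.46 ± 0.23. Among lineage markers, 3 of 19 primitive endoderm genes rose, among them Pdgfra (1.46 ± 0.28), and of 19 trophectoderm genes Gata2 (2.57 ± 0.43) and Krt19 (1.52 ± 0.43) rose while Tfap2a (-1.92 ± 0.31) and Esx1 (-1.41 ± 0.23) fell. In the cholesterol synthesis list 2 of 24 rose, Msmo1 (1.13 ± 0.09) and Insig1 (1.09 ± 0.1). Collagen genes split, with 6 of 41 higher (3 without Dux OE replicate 1) and 5 lower (2 without Dux OE replicate 2).

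Several housekeeping lists held no called gene. They were the 80 cytosolic ribosomal protein genes (median -0.28), 28 ribosome biogenesis genes (-0.41), 34 proteasome genes (-0.43), 24 integrated stress response genes (-0.27), 15 unfolded protein response genes (0.09), 17 apoptosis regulators (0.11) and 12 retinoic acid genes (-0.14). Of 84 nuclear respiratory chain genes 1 fell, with a median of -0.26, and of 25 p53 targets 1 rose, with a median of 0.16 (0 to 4 rose when 1 library was left out). DESeq2 likewise called 0 genes in the 7 lists without a call. At an unadjusted edgeR p under 0.05 and no minimum fold, which 9668 of all 20953 genes passed, 29 of the 34 proteasome genes were lower and 2 higher, as were 22 and 3 of the ribosome biogenesis genes, 47 and 4 of the ribosomal protein genes and 11 and 4 of the integrated stress response genes. In the unfolded protein response list 4 were lower and 5 higher, among apoptosis regulators 2 and 6, and among retinoic acid genes 4 and 2. Scaled by library totals alone, 3 integrated stress response genes and 2 apoptosis regulators were called higher. The other lists had few calls, and most of their counts moved when 1 library was left out. Lower and higher calls were 2 and 1 of 16 formative and primed genes, 0 and 1 of 35 Hox genes, 2 and 2 of 25 imprinted genes, 1 and 2 of 13 Wnt targets, 4 and 2 of 58 Zfp9xx zinc finger genes and 1 and 3 of 21 adhesion genes. They were 1 and 0 of 20 glycolysis genes, 1 and 1 of 20 lysosome genes, 1 and 1 of 13 mitochondrial respiratory chain genes, 0 and 1 of 11 SR splicing factors, 0 and 2 of 17 snoRNA host genes and 0 and 1 of 13 DNA methylation genes. The mitochondrial list had a median of -0.49, and at the unadjusted edgeR p 8 of its genes were lower and 1 higher.

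**Figure D3:**
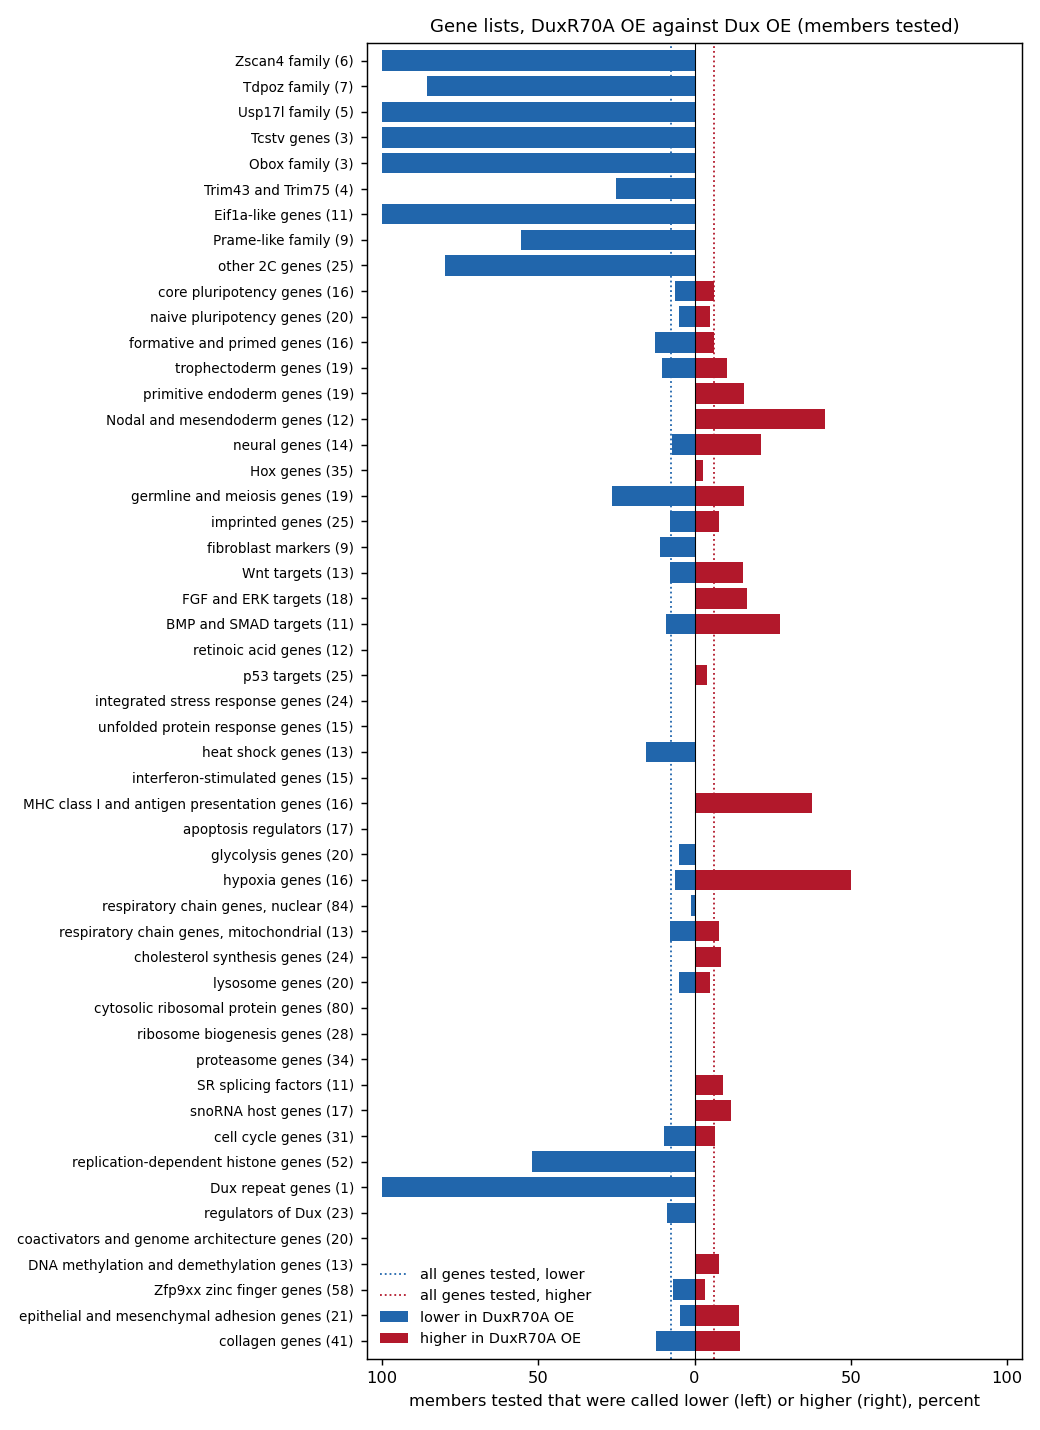
Percent of the tested members of each gene list (number tested in brackets) that were called lower (bars to the left) or higher (bars to the right) in DuxR70A OE than in Dux OE, with dotted lines at 7.51% lower and 6.11% higher for all genes tested. The 2C lists and the histone list, at 27 of 52, extend to the left, and the hypoxia list, at 8 of 16, reaches furthest to the right.

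The levels in other libraries of the series place both sets of genes. The median level of the 1574 lost genes was 2.93 CPM in Dux OE and 0.116 CPM in DuxR70A OE, with 0.294 CPM in untreated and 0.113 CPM in DMSO-treated ESCs. It was 1.89 CPM in SE KO Dux OE, 0.698 in Zscan4 OE, 2.01 in PlaB and 0.998 in RA. For the 1280 gained genes the median was 1.02 CPM in Dux OE, 3.12 in DuxR70A OE, 0.928 in untreated ESCs and 2.17 CPM in DMSO-treated ESCs. With the mutant, the lost genes were thus near their level in DMSO-treated ESCs and below that in untreated ESCs, and the gained genes near untreated ESCs with Dux and above both controls with the mutant. The size classes of the lost genes also differed in their ESC level. The cut by fitted fold may itself produce this difference, and no relation was tested. Lost genes with a log2 fold change between -1 and -2 had medians of 5.44 CPM in Dux OE, 2.07 in DuxR70A OE and 4.57 in untreated ESCs. Those with a fitted log2 fold change of -5 or below had 2.64, 0 and 0.0333 CPM.

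**Figure D4:**
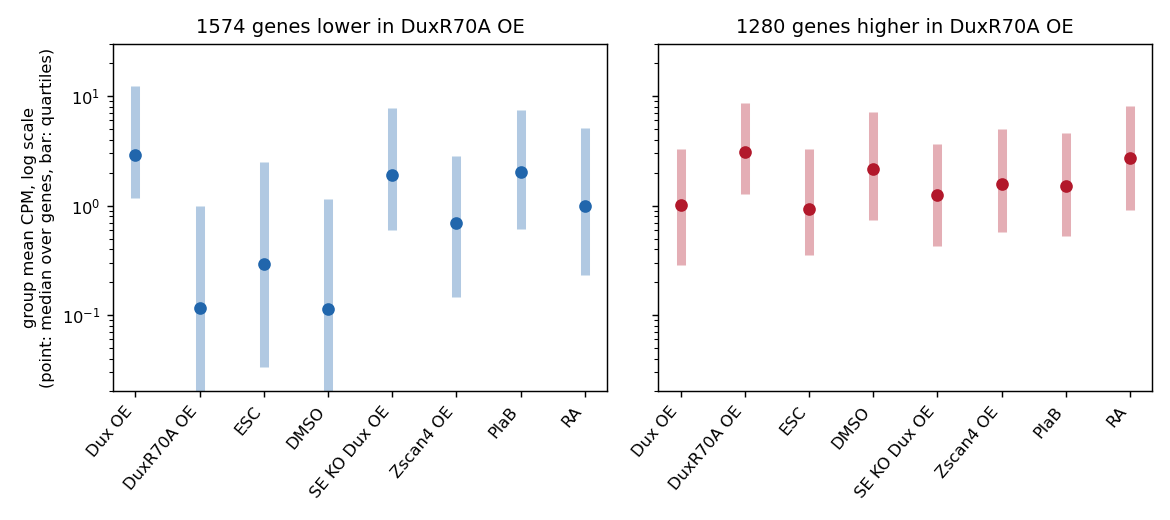
Group mean CPM (log scale) of the 1574 lost genes (left) and the 1280 gained genes (right) in 8 groups of 2 libraries, with points at the median over genes and bars from the lower to the upper quartile (bars that meet the lower edge reach 0). Lost genes are highest in Dux OE, at 2.93 CPM, and gained genes in DuxR70A OE, at 3.12 CPM, which the choice of the genes fixes for these 2 groups.

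Comparisons that share no library with DuxR70A OE or Dux OE read the same genes in other cells. SE KO Dux OE, the same transgene in cells that lack a super-enhancer, was called higher than untreated ESCs for 845 lost genes (53.7%, against 9.02% of all genes tested) and lower for 68 (4.32%, against 3.84%). Zscan4 OE was called higher for 391 lost genes (24.8%, against 7.25%) and lower for 140 (8.89%, against 4.39%). PlaB was called higher than DMSO for 1133 lost genes (72%, against 32.3%) and lower for 107 (6.8%, against 26.6%), and RA higher for 853 (54.2%, against 20.6%) and lower for 33 (2.1%, against 10.4%). These comparisons share control libraries among themselves, so they are not separate experiments. The gained genes were called higher in SE KO Dux OE in 158 cases (12.3%) and in Zscan4 OE in 341 cases (26.6%), and lower in 75 (5.86%) and 27 (2.11%). This reading turned with the control. Against DMSO-treated ESCs, SE KO Dux OE was called lower for 39.8% of the gained genes (7.43% of all genes) and higher for 4.53% (12.3%). Zscan4 OE was called lower for 20.2% of the gained genes (5.14% of all genes) and higher for 6.02% (7.63%). The lost genes were called higher in 70.6% of cases in SE KO Dux OE and in 39% in Zscan4 OE. With PlaB against DMSO, the gained genes were called lower in 537 cases (42%) and higher in 278 (21.7%). With RA against DMSO, the gained genes were called higher in 372 cases (29.1%) and lower in 266 (20.8%).

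The 2 kinds of uninduced ESC also differed in these genes. DMSO-treated ESCs were called higher than untreated ESCs for 565 of the 1280 gained genes (44.1%, against 8.32% of all genes) and lower for 25 (1.95%). For the 1574 lost genes they were called lower in 425 cases (27%, against 7.91%) and higher in 34 (2.16%). DuxR70A OE and Dux OE both received doxycycline and neither label names DMSO. What separates the DMSO from the untreated libraries is not given by the labels beyond the DMSO, and its part in the comparison of DuxR70A with Dux was not tested. Without the genes called between the controls, a setting added after the data were seen, 1115 genes were lower and 690 higher.

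**Figure D5:**
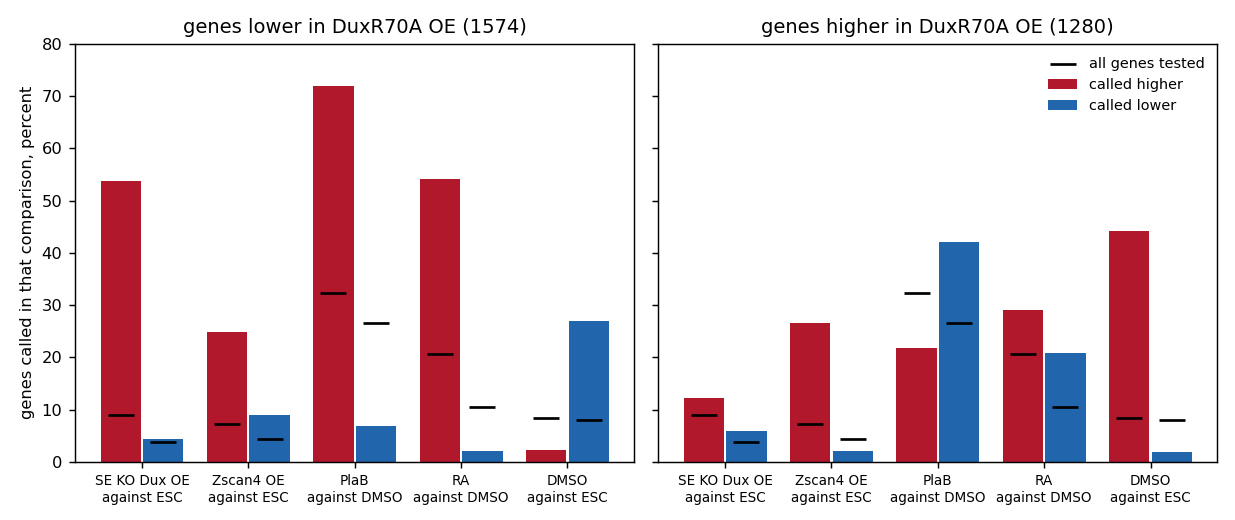
Percent of the lost genes (left) and of the gained genes (right) that were called higher (red) or lower (blue) in 5 comparisons without DuxR70A OE or Dux OE libraries, with black dashes at the percent of all tested genes. Lost genes stand above the dash among genes called higher in SE KO Dux OE, at 53.7%, and gained genes among genes called higher in DMSO over untreated ESCs, at 44.1%.

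Some lost genes lay side by side in the genome. Counting runs of at least 4 neighbouring tested genes with the same call, 43 runs held 311 of the 1574 lost genes and 3 runs held 13 of the 1280 gained genes. The longest run had 47 genes (chr12:87480108-88222617) and holds Eif1a-like genes and Oog1. A run of 19 (chr3:93727026-94332540) holds Tdpoz and Spopfm genes, and a run of 18 (chr1:84958982-85650585) holds Sp110 and Sp140 among other genes. The longest run of gained genes had 5. Neighbours in such clusters are often copies, so the runs are not counts of independent events.

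By gene class, with GENCODE M21 classes matched by symbol for 20458 tested genes, pseudogenes fell in 316 of 1878 cases (16.8%) and rose in 41 (2.18%). Long noncoding RNA genes fell in 276 of 2010 cases (13.7%), and protein-coding genes in 787 of 15549 (5.06%) while 1074 rose (6.91%). Protein-coding genes thus made up 53.1% of the lost genes with a class and 85.6% of the gained genes, against 76% of all. Lost genes were short, with a median exon length of 1949 bases against 3384 over all tested genes and 4193.5 for gained genes. Of the lost genes, 28.5% had a single exon entry, against 7.5% of the gained genes and 15.5% of all. Reads shared between a pseudogene and its parent copy may be counted for either, and the strand setting of the counting is not given in the sources used here, so antisense neighbours cannot be told apart from their partners.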

How the data were processed

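Poly(A) RNA of R1 ESCs was sequenced, and the authors deposited raw counts per gene for 26 libraries. Their processing notes name FastQC, Trimmomatic, STAR, featureCounts and DESeq2 and the build mm10. The handling of reads that map to several places and the strand setting are not given in the sources used here. Groups were taken from the sample titles.

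From the deposited counts, 55291 genes were reduced to 20953 by filterByExpr, scaled by TMM and fitted for all 26 libraries in 1 model with edgeR (version 4.0.16, run in R version 4.3.3). Its quasi-likelihood F-test was used, with Benjamini-Hochberg adjusted p-values over all genes and a prior count of 0.125. The steps were tested on simulated data. The biological coefficient of variation was 0.0833. Totals over all libraries ran from 14401452 to 39402840. A count of 0 was given a floor of 3 counts per library for bounds, and ratios that rest on 1 to 3 counts have exact 95% intervals that cover counting error only. CPM are not divided by gene length, so levels were not compared between genes as abundance per molecule.

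Within the Dux OE and DuxR70A OE groups the libraries correlated at 0.989 and 0.991 (Pearson, log2 CPM over genes, which are not independent replicates), and their counts differed by 2.06 and 5.19 times sampling noise (chi-square per degree of freedom), so none was a duplicate. Replicate numbers were not taken as pairs, since the correlation of deviations of same-numbered libraries was 0.0237.

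Named genes were Duxf3, Pou5f1, Sox2, Nanog and genes that the study discusses. To these were added up to 4 called members of each list with the largest change, or the 2 most abundant of a list without calls, and the 12 largest falls and rises among genes with a mean log2 CPM of at least 1 (-1 in 2C lists) and no overlap between groups. Some of the genes this rule gives are not reported here. Other genes in the text are list members named after their values were seen. The comparison, the lists and the tests were chosen with earlier results of these data known. Alternatives were RLE size factors, library totals, no filter, the 4 libraries alone, a replicate block, DESeq2 1.42.0, other thresholds, DMSO as control and leaving out each library.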

Additional observations from a re-analysis of the deposited data

Results flagged for a closer look

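Read against untreated ESCs, 8 of the named genes were called in opposite directions with Dux and with DuxR70A, among genes that had more than 3 counts in each of the 3 groups. Both readings share the untreated ESC libraries, and the test of their difference is the test of DuxR70A OE against Dux OE itself, adjusted over all genes with edgeR. Of the 8, 7 were above ESCs with Dux and below ESCs with DuxR70A. Zscan4d had log2 fold changes against ESCs of 7.25 with Dux and -5.73 with DuxR70A, a difference of -12.98. For Zscan4a they were 6.87 and -5.47 (difference -12.34), for Gm5662 6.15 and -5.56 (-11.7), and for Usp17le 7.36 and -4.19 (-11.55). Gm27167, a gene of the 2C list, had 5.01 and -2.7 (-7.71), the histone gene H4c9 1.58 and -1.71 (-3.29), and Fbxo15 2.25 and -1.03 (-3.28). DMSO-treated ESCs were themselves called lower than untreated ESCs for Zscan4d (-2.6), Zscan4a (-1.81), Gm5662 (-2.67), Usp17le (-2.61) and Gm27167 (-1.53). H4c9 (-0.94) and Fbxo15 (-0.19) were not called between these controls. The opposite directions thus hold for untreated ESCs as the control, and the part of the difference between controls was not tested.

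Egr1 lay below ESCs with Dux and above ESCs with DuxR70A, with -1.03 and 3.13, a difference of 4.16. It was also called higher in DMSO-treated than in untreated ESCs (1.93). Over all genes tested, 133 were called in opposite directions against untreated ESCs, 127 of them lower and 6 higher in DuxR70A OE than in Dux OE.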

How the results depend on the processing

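With DESeq2, 1472 genes were lower and 1141 higher, of which 1456 and 1137 were also called by edgeR. Other size factors (RLE), no filter on low counts, a fit of the 4 libraries alone and scaling by totals kept the counts of lost genes between 1329 and 1584 and of gained genes between 1261 and 1902. The replicate block gave 1557 and 1261, but the same-numbered libraries deviated together with a correlation of only 0.0237, so the numbers were not taken as pairs. Leaving out each library in turn gave 1389 to 1435 lower and 997 to 1135 higher genes, and 59 to 61 lower 2C genes. Without a minimum fold, 4481 genes were lower and 3621 higher, and 1 of the higher genes was a 2C gene. At a minimum log2 fold change of 2, 1065 were lower and 401 higher. Without genes called between DMSO-treated and untreated ESCs, 690 were higher and 32 2C genes were lower. With DMSO-treated ESCs as the control, Dux OE had 1403 lower and 2408 higher genes and DuxR70A OE 610 and 1287. The lost genes were then called lower in 0.635% of cases in SE KO Dux OE and 1.59% in Zscan4 OE, and higher in 39% in Zscan4 OE. For the gained genes the shares were 39.8% lower and 4.53% higher in SE KO Dux OE, and 20.2% lower and 6.02% higher in Zscan4 OE. Over all genes tested they were 7.43% lower and 12.3% higher in SE KO Dux OE, and 5.14% and 7.63% in Zscan4 OE.

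Of 152 named genes, 29 changed their call or direction in at least 1 of 10 alternatives, and some, Pramef17 and Pramel7 among them, were not tested in the fit of the 4 libraries alone. Sign changes were limited to uncalled genes near 0. With totals alone these were Birc5 (0.17), Crebbp (0.15), Rpl4 (0.12), Npm1 (0.11) and Psat1 (0.02). Without the filter they were Birc5 (0.06), Crebbp (0.03) and Rpl4 (0.01). Rad21 stood at -0.01 with RLE and with DESeq2, and at 0 without DuxR70A OE replicate 1. When a library was left out, Birc5 ranged from -0.04 to 0.04 and Crebbp from -0.1 to 0.06. The causes were not tested. With 2 libraries per group and 3 reads equal to 0.161 to 0.219 CPM, folds of silent genes are bounds.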

Other observations

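Other families were counted after the values were seen, and their counts are descriptions only. Olfactory receptor genes, normally confined to sensory neurons, had 48 tested members of 1408 in the table, of which 24 fell and 3 rose in DuxR70A OE, against 7.51% and 6.11% of all genes. Their median log2 fold change was -3.3, or -1.12 with the 25 genes without a DuxR70A OE read at their bound. Of 55 Obox genes in the table, pseudogene copies included, 10 were tested and all 10 fell. So did 4 of 4 tested Speer genes, of 14 in the table, and 3 of 3 Spopfm genes. A gene silent in other groups could pass the count filter through the Dux OE libraries. The share that fell in these and the olfactory receptor families may thus be partly set by the filter. Of 9 Rhox genes, X-linked homeobox genes of the reproductive tract and placenta, 5 fell (Rhox5, Rhox6, Rhox9, Rhox10 and Rhox13), and they lie side by side (chrX:37804842-38129967).

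Further families chosen in the same way had gained members, against 6.11% of all genes called higher and 7.51% called lower. Potassium channel genes rose in 16 of 70 cases and fell in 3, voltage-gated calcium channel genes rose in 7 of 22 and fell in 1, and voltage-gated sodium channel genes rose in 4 of 11 and fell in 1. Semaphorins, which guide axons and vessels, rose in 6 of 20 cases and none fell, with a median of 1.03, and synaptotagmins, calcium sensors of vesicle release, rose in 4 of 15.

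Chromosomes differed in their median log2 fold change. It was 0.29 on chromosome 17, 0.2 on chromosome 2 and 0.15 on chromosome X, and -0.22 on chromosome 1, against -0.01 over all genes. On chromosome 17, 12.7% of tested genes were gained. DMSO-treated against untreated ESCs gave 0.19, 0.19 and 0.22 on chromosomes 17, 2 and X, and -0.25 on chromosome 1. DuxR70A OE against DMSO-treated ESCs gave 0.05, 0, -0.04 and 0.09, with 0.03 over all genes, and Dux OE against untreated ESCs -0.01, -0.02, 0.01 and 0.03. What sets these medians was not tested. On the lost side, chromosomes 13 and 12, which hold the histone and Tcstv genes and the Eif1a-like cluster, had the highest shares, at 14.4% and 12.9%.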
